A study of Drosophila melanogaster with 6 samples.

Results

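Receptor tyrosine kinases carry signals for growth, survival and cell movement from secreted ligands into the cell. The RNA of 10 of them was followed in Drosophila wing imaginal discs, the larval epithelial sacs that give rise to the adult wing and thorax. The 10 were taken by gene symbol: tor, btl, htl, Pvr, Alk, Ror, drl, dnt, otk and Cad96Ca. The gene tor (torso) was chosen by its measured fall in these same libraries, so its values are given as a description without a test. Of the 10 genes, 9 were matched to the 17478 genes of the count table. The tenth, btl, whose product guides branching of the trachea, has an identifier in the annotation used here that matched no row, and it was not analysed here.

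RNA was sequenced from 3 samples of CycGΔP discs (labelled genotype UAS-CycGΔP, da-Gal4/+) and from 3 control samples (da-Gal4/+). The da-Gal4 driver is ubiquitous and was present in both genotypes. CycGΔP discs also carried the UAS transgene, which codes for Cyclin G without its PEST-rich C-terminal domain. The sources used here do not say whether the genetic backgrounds otherwise matched. Effects of background and of the transgene therefore cannot be told apart. All discs came from female larvae of the third instar reared at 25°C, 150 discs were pooled per sample, and per the study's methods the 3 samples of a genotype came from independent crosses. Libraries held 21853360 to 40059450 counts, and 9408 genes were tested with edgeR's quasi-likelihood test with Benjamini-Hochberg adjustment over all of them. CycG itself averaged 978.2 CPM (counts scaled to a common library size) in CycGΔP discs and 732.3 in control discs (log2 fold change 0.42, SE 0.09, adjusted p = 0.0909), a measure that adds transgene and endogenous reads. All 7 matched wing disc epithelium markers were present, with summed levels of 1655 to 1784 CPM in CycGΔP discs and 1526 to 1780 CPM in control discs. In pooled discs, fewer cells of a type and less RNA per cell cannot be told apart.

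A receptor tyrosine kinase binds its ligand outside the cell and phosphorylates tyrosines inside it. In most of the family this recruits adaptors that switch on Ras, the kinases Raf, Dsor1 (MEK) and rl (ERK), and finally transcription factors such as pnt and aop. Torso is best known from the embryo, where Trunk activates it at both poles to specify the unsegmented ends, and from the larval prothoracic gland, where the brain hormone PTTH acts through it to time ecdysone production. Wing discs carry other cells beside their epithelium, among them adult muscle precursors and tracheal branches.

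The gene tor (FBgn0003733, dm6 2R:7705183-7709184, minus strand) held 27, 20 and 23 counts in the CycGΔP libraries and 170, 231 and 147 counts in the control libraries. After normalisation this was 1.03, 0.951 and 0.803 CPM in CycGΔP discs and 5.43, 5.67 and 5.12 CPM in control discs. The groups lay far apart: the lowest control library was 4.98 times the highest CycGΔP library. The means were 0.928 ± 0.115 and 5.41 ± 0.275 CPM (SD, n = 3 each), a control level 5.83 times that of CycGΔP discs, and the fitted log2 fold change was -2.54 (SE 0.21). Within each genotype the spread was small, with a coefficient of variation of 12.4% in CycGΔP discs and 5.09% in control discs. No exon of tor overlaps another annotated gene. Over all tested genes, 12.1% were lower in CycGΔP discs with no overlap between the groups.

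**Figure D1:**
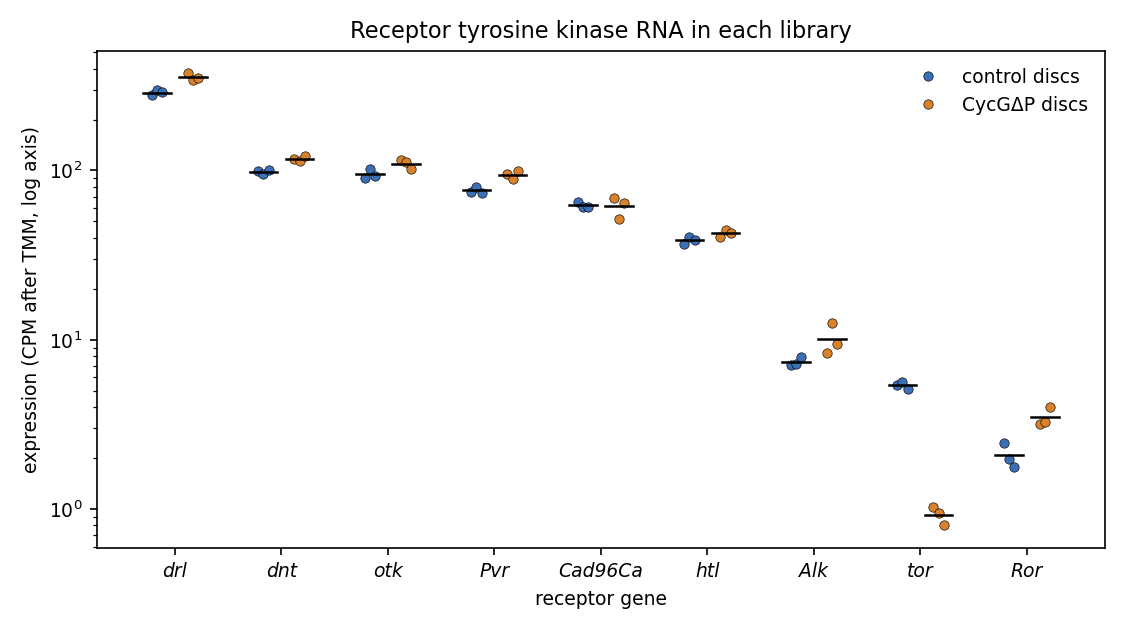
Expression of the 9 matched receptors in each library. The vertical axis is CPM after TMM normalisation on a log scale, each point is 1 library of control discs (blue) or CycGΔP discs (orange), and the black line is the mean of 3. The tor points fall from 5.12 to 5.67 CPM in control discs to 0.803 to 1.03 CPM in CycGΔP discs, while drl, dnt, Pvr, htl, Alk and Ror lie slightly higher in CycGΔP discs without overlap.

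Among the other 8 receptors no level fell as that of tor did. None of the 8 passed the edgeR test, against 1.42% of all tested genes, but 6 of the 8 (drl, dnt, Pvr, htl, Alk and Ror) had all 3 CycGΔP libraries above all 3 control libraries, against 9.98% of tested genes. An unadjusted p under 0.05 with a higher level in CycGΔP discs was reached by 6 of the 8 (drl, dnt, Pvr, Alk, Ror and otk), against 6.65% of tested genes. Their median log2 fold change was 0.28, beside 0.01 for all tested genes. DESeq2, which the study itself used in an earlier version, was run here as an alternative. It called 3 of the 8 (Pvr, drl and dnt) both without and with shrinkage of fold changes. Among all its tested genes it called 5.79% and 6.00%.

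The Ryk-type receptors drl and dnt were the most abundant of the 9. They bind Wnt proteins, have kinase domains thought to be inactive, and drl is known for steering axons away from Wnt5. The level of drl (2L:19190342-19208621) was 374.8, 342.1 and 350.9 CPM in CycGΔP discs and 278.4, 298.0 and 288.9 CPM in control discs. Every CycGΔP library was above every control library, with a mean 1.23 times the control mean (log2 fold change 0.30, SE 0.07, 95% interval 0.13 to 0.47, adjusted p = 0.1105, n = 3 each, edgeR). The related gene dnt (2L:19338669-19363227), on the same chromosome arm, gave 117.3, 113.5 and 121.5 CPM in CycGΔP discs and 99.3, 96.0 and 100.2 CPM in control discs. Its groups did not overlap either, at 1.19 times the control mean (log2 fold change 0.25, SE 0.06, 95% interval 0.10 to 0.41, adjusted p = 0.130, edgeR). The ratio of drl to dnt per kb of exon stayed between 2.38 and 2.72 over the 6 libraries, with overlapping ranges in the 2 genotypes.

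Pvr, the PDGF/VEGF-type receptor that guides haemocytes and the spreading of the thorax epithelium, was likewise among the genes without overlap. Its level (2L:8220980-8239878) was 95.6, 88.7 and 99.1 CPM in CycGΔP discs and 74.9, 80.2 and 73.6 CPM in control discs. The CycGΔP mean was 1.24 times the control mean without overlap (log2 fold change 0.31, SE 0.07, 95% interval 0.13 to 0.49, adjusted p = 0.119, n = 3 each, edgeR). The 6 haemocyte markers summed to 29.2, 153.5 and 132.9 CPM in CycGΔP discs and 56.6, 80.6 and 40.6 CPM in control discs. All 6 had a positive log2 fold change (median 1.02), and none passed the test or was free of overlap. Among all tested genes 1.42% passed and 9.98% were higher without overlap. The part of haemocyte RNA in the Pvr values was not tested.

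The FGF receptor htl (heartless), needed for mesoderm migration and expressed in adult muscle precursors of the disc, changed least among the 6 genes without overlap. It was at 40.7, 44.5 and 42.9 CPM in CycGΔP discs and 36.8, 40.3 and 39.0 CPM in control discs (3R:18045216-18052984). The lowest CycGΔP library barely exceeded the highest control library, and the log2 fold change was 0.14 (SE 0.07, 95% interval -0.02 to 0.30, adjusted p = 0.382, n = 3 each, edgeR). The 5 markers of adult muscle precursors summed to 211.9 to 226.9 CPM in CycGΔP discs and 171.3 to 227.8 CPM in control discs, overlapping ranges.

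Alk and Ror were scarce. Alk, the receptor for Jelly belly in visceral muscle and a growth regulator in the nervous system, was at 8.35, 12.6 and 9.39 CPM in CycGΔP discs and 7.07, 7.19 and 7.91 CPM in control discs (2R:16625293-16640011). Its mean was 1.37 times the control mean (log2 fold change 0.45, SE 0.17, 95% interval 0.03 to 0.87, adjusted p = 0.295, n = 3 each, edgeR). The highest value belonged to CycGΔP replicate 2, which gave a coefficient of variation of 21.9% in that genotype. That library also held the highest summed level of 5 neuronal markers, 98.0 CPM, beside 48.1 to 63.3 CPM in the other 5 libraries. Of these markers, elav, futsch and brp were highest there. The other markers were not, as nSyb was highest in CycGΔP replicate 3 and Syt1 in control replicate 1. The part of neuronal RNA in the Alk values was not tested. Ror, known from the nervous system, had the largest positive fold change of the 8 but as few as 51 counts in a library. It was at 3.16, 3.28 and 4.01 CPM in CycGΔP discs and 2.46, 1.99 and 1.78 CPM in control discs (2L:10251843-10254686). All CycGΔP libraries were higher, at 1.68 times the control mean (log2 fold change 0.75, SE 0.24, 95% interval 0.17 to 1.32, adjusted p = 0.214, n = 3 each, edgeR). A share of 3.39% of the exon length of Ror overlaps CG5676 on the opposite strand, and the sources used here do not state whether the counting used strand.

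The remaining receptors overlapped between genotypes. The PTK7-related otk (off-track), a Wnt co-receptor, was at 114.7, 111.7 and 101.7 CPM in CycGΔP discs and 90.1, 102.6 and 93.1 CPM in control discs (2R:12001473-12019846). Control replicate 2 lay just above CycGΔP replicate 3 (log2 fold change 0.20, SE 0.08, 95% interval 0.00 to 0.40, adjusted p = 0.339, n = 3 each, edgeR). Its tandem relative otk2 did not share that offset, at 47.0, 40.6 and 43.1 CPM in CycGΔP discs and 43.5, 44.8 and 43.4 CPM in control discs (log2 fold change -0.01, SE 0.07). Cad96Ca (stitcher), a cadherin-related receptor that takes part in epidermal wound repair, was at 69.1, 51.7 and 64.0 CPM in CycGΔP discs and 64.8, 61.2 and 61.1 CPM in control discs (3R:25197571-25208283). The CycGΔP libraries lay on both sides of the control libraries, and the log2 fold change of -0.02 had a 95% interval of -0.29 to 0.25 (SE 0.11, adjusted p = 0.959, edgeR). This near-zero value took either sign under other settings, from -0.11 to 0.09.

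To ask which receptors the discs expressed, levels were divided by the merged exon length of each gene. They were compared within control discs over 18 receptors, the 9 above and 9 more of the family. InR, the insulin receptor gene, was also listed, but its identifier matched no row. It is missing from this order, from the sum and from the tests of the wider family. The unit is CPM per kb of exon. drl stood first at 92.9 ± 3.16 and made up 27.7% of the sum over the 18 receptors, ahead of Egfr at 65.4 ± 8.04 and Eph, the ephrin receptor, at 44.6 ± 1.84 (SD, n = 3). Next came dnt at 37.3 ± 0.849, otk2 at 22.3 ± 0.408, Cad96Ca at 21.2 ± 0.711 and otk at 19.97 ± 1.37. The range of Cad96Ca overlapped that of otk, so their order was not resolved. Pvr at 11.5 ± 0.525 and htl at 9.45 ± 0.434 stood 8.11 and 9.84 times below drl. A lower tier held Tie at 3.995 ± 0.561, the discoidin-domain collagen receptor Ddr at 2.05 ± 0.169, tor at 1.73 ± 0.088, Nrk at 1.02 ± 0.067, Ror at 0.914 ± 0.155 and Alk at 0.759 ± 0.047. Neighbours within that tier overlapped from Nrk to Ror and from Ror to Alk, whereas tor overlapped neither Ddr nor Nrk. The last places fell to Ret at 0.407 ± 0.063, sev, which specifies the R7 photoreceptor, at 0.152 ± 0.158, and the third Ryk gene Drl-2 at 0.0199 ± 0.014.

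**Figure D2:**
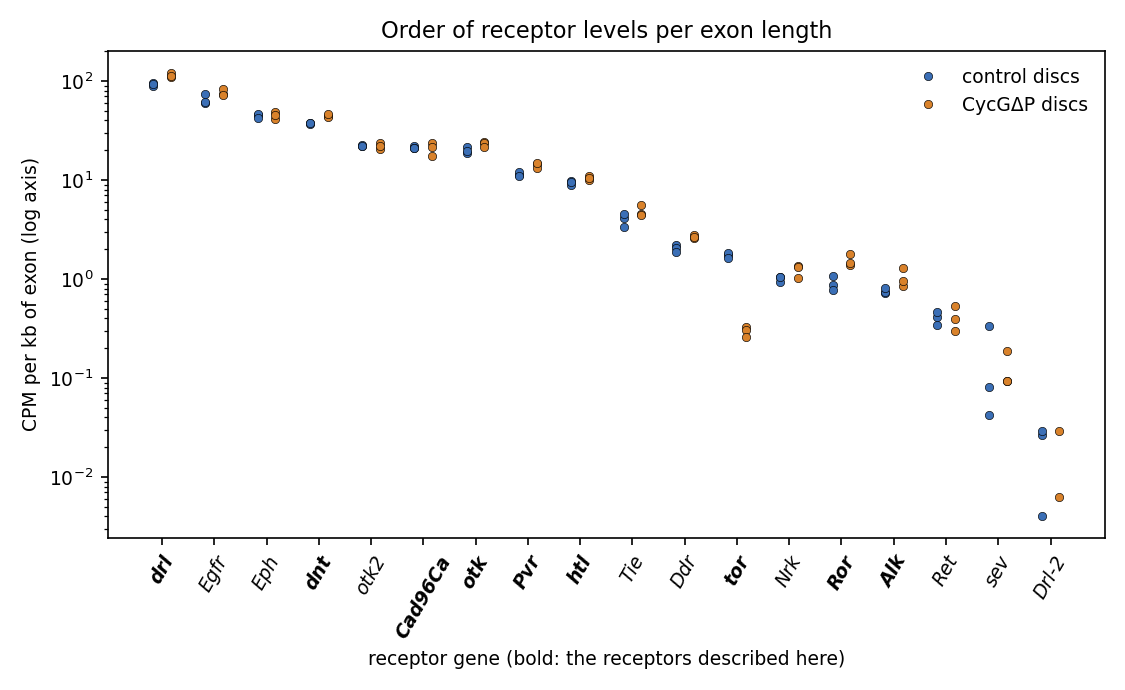
Levels of 18 receptor genes in CPM per kb of exon (log axis), ordered by their mean in control discs, with 1 point per library (blue control, orange CycGΔP). Bold names are the receptors described in detail, and the library with no Drl-2 count has no point. The order runs from drl at 92.9 to Drl-2 at 0.0199 in control discs, and tor moves from place 12 to place 16 in CycGΔP discs.

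In CycGΔP discs tor averaged 0.296 ± 0.037 CPM per kb, beside 1.04 ± 0.228 for Alk and 0.411 ± 0.118 for Ret, and its share of the summed receptor level went from 0.515% to 0.0774%. It took place 12 of 18 in control discs and place 16 in CycGΔP discs, where its range of 0.256 to 0.329 overlapped that of Ret (0.300 to 0.535), so those places were not resolved. Among the 9 receptors alone it was seventh in each control library and ninth in each CycGΔP library. drl, dnt, Pvr and htl held places 1, 2, 5 and 6 of the 9 in all 6 libraries, while Cad96Ca and otk exchanged places 3 and 4, and Ror and Alk exchanged places, between libraries.

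None of the 8 tested receptors of the wider family passed the test, against 1.42% of all tested genes. Their median log2 fold change was 0.12. Ddr was the only one of the 8 without overlap, beside 9.98% of all tested genes that were higher without overlap. It was at 13.3, 14.1 and 13.5 CPM in CycGΔP discs and 11.2, 10.5 and 9.51 CPM in control discs (log2 fold change 0.39, SE 0.10, adjusted p = 0.135, edgeR). Egfr, the main growth and patterning receptor of the disc, ranged from 500.5 to 574.6 CPM in CycGΔP discs and from 415.3 to 518.1 CPM in control discs (log2 fold change 0.22, SE 0.11, adjusted p = 0.408, edgeR). Tie and Nrk gave log2 fold changes of 0.27 (SE 0.14) and 0.26 (SE 0.20). Eph was at 0.01 with a 95% interval of -0.19 to 0.20. The scarce Ret and sev gave 0.01 (SE 0.30) and -0.28 (SE 0.79), with wide errors. Drl-2 held at most 5 counts in any library and was not tested. Antisense or same-strand neighbours overlap 7.47% of Ret exon and 7.73% of Nrk exon.

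Of 12 ligand genes for these receptors, 10 were tested, none passed the edgeR test, and 5 (trk, Pvf1, Pvf2, Pvf3 and Wnt4) lay higher in CycGΔP discs without overlap, beside 1.42% called and 9.98% higher without overlap among all tested genes. Their median log2 fold change was 0.26. All 3 ligands of Pvr were among the 5. Pvf2 was at 33.4, 31.3 and 34.9 CPM in CycGΔP discs and 24.3, 23.8 and 27.7 CPM in control discs (log2 fold change 0.39, SE 0.08, adjusted p = 0.0935, edgeR). Pvf3 was at 8.50, 9.41 and 9.39 CPM in CycGΔP discs and 5.53, 6.85 and 6.72 CPM in control discs (log2 fold change 0.51, SE 0.14, adjusted p = 0.150, edgeR). Pvf1 showed a smaller difference (log2 fold change 0.17, SE 0.11, adjusted p = 0.522, edgeR). DESeq2 called Pvf2, with sty below, and no other gene of the ligand, activator, transducer, inhibitor and effector lists. That was 2 of 44 genes, beside 5.79% of all its tested genes without and 6.00% with shrinkage.

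Among the Wnt ligands, Wnt4, which can bind otk products, was at 16.0, 16.0 and 14.1 CPM in CycGΔP discs and 9.27, 12.0 and 12.5 CPM in control discs (log2 fold change 0.45, SE 0.14, adjusted p = 0.190, edgeR). Wnt5, the drl ligand, and Wnt2 overlapped between genotypes, with log2 fold changes of -0.05 (SE 0.11) and -0.14 (SE 0.12). The htl ligands ths and pyr gave 0.36 (SE 0.16, adjusted p = 0.374, edgeR) and 0.12 (SE 0.11), and bnl, the btl ligand, gave 0.03 (SE 0.18). jeb, the Alk ligand, held at most 8 counts in a library and was not tested.

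The ligands of Torso were scarce. trk was at 1.11, 1.28 and 1.08 CPM in CycGΔP discs and 0.799, 0.687 and 0.836 CPM in control discs (log2 fold change 0.58, SE 0.29, adjusted p = 0.413, edgeR), above the controls in all 3 libraries but with a 95% interval of -0.12 to 1.28. Ptth, normally made by brain neurons, held 8, 6 and 3 counts in CycGΔP libraries and 1, 4 and 2 in control libraries and was not tested. Of 8 genes that act with Torso at the embryonic poles, 4 were tested and none passed, against 1.42% of all tested genes. tsl (torso-like), which localises Torso activation in the embryo, was at 74.9, 65.2 and 76.8 CPM in CycGΔP discs and 77.6, 70.1 and 78.5 CPM in control discs (log2 fold change -0.06, SE 0.09). The protease genes Fur1 and Fur2 gave log2 fold changes of 0.13 (SE 0.12) and -0.09 (SE 0.12), and clos gave 0.48 (SE 0.34). The terminal target genes tll and hkb held at most 3 counts and 1 count in any library, so a change of either was not detectable at this depth.

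**Figure D3:**
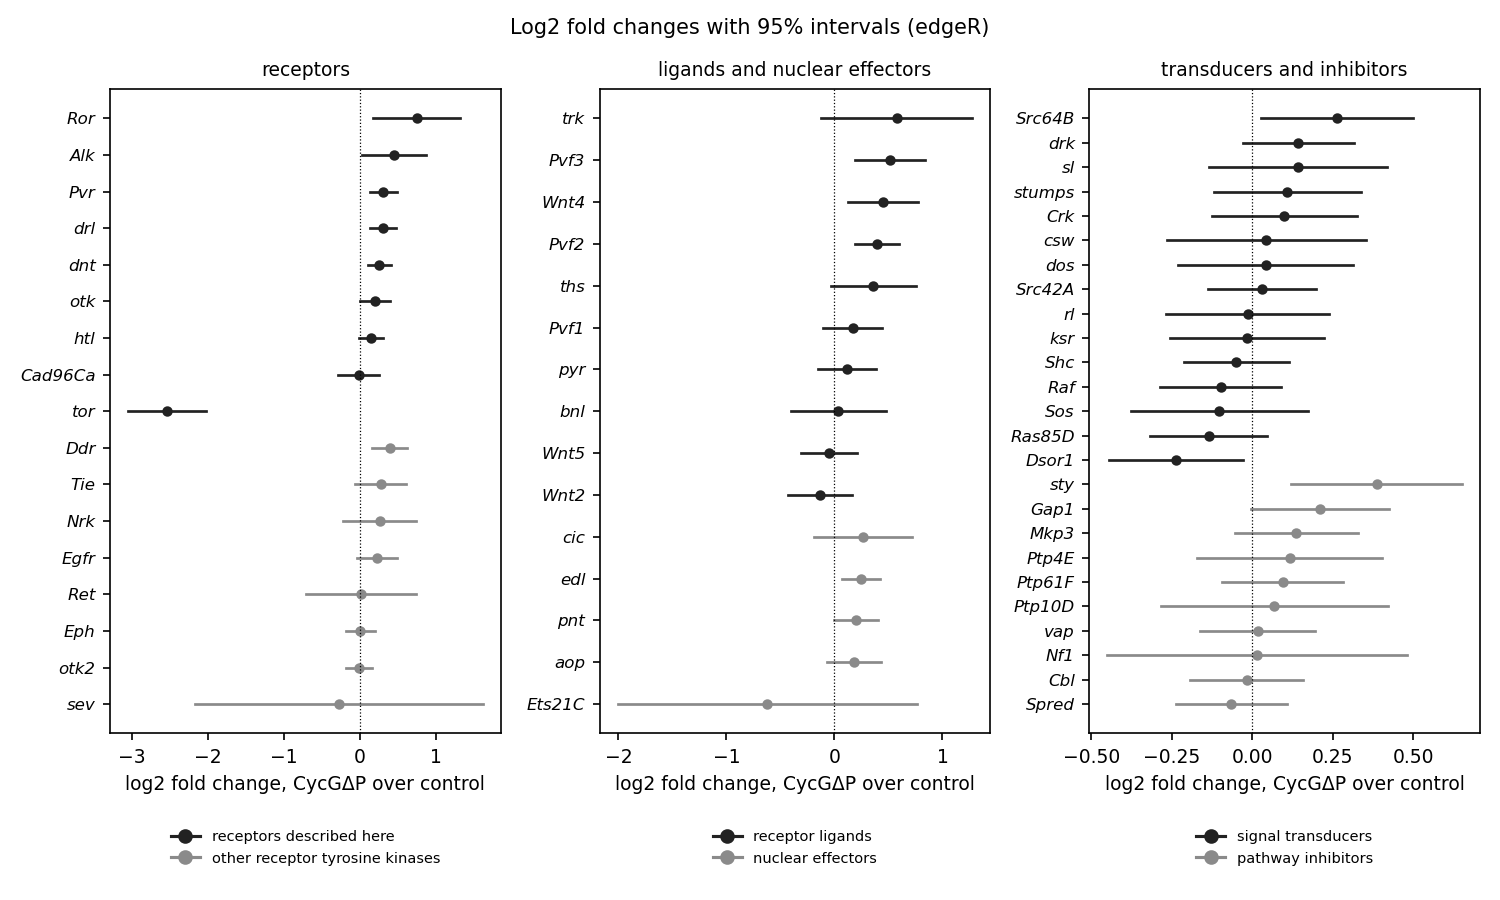
Log2 fold changes of CycGΔP over control discs (horizontal axes, which differ between panels) with their 95% intervals from edgeR, for receptors, for ligands and nuclear effectors, and for transducers and inhibitors. tor stands alone at -2.54, and the other receptors lie between -0.28 (sev) and 0.75 (Ror).

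Downstream of the receptors the listed transducer gene cnk matched no row and was not analysed. None of the 15 transducers, 10 inhibitors or 5 nuclear effectors tested passed the edgeR test. With the ligands and the Torso genes this made 0 of 44 tested genes, with 6 higher and 1 lower at an unadjusted p under 0.05 and a median log2 fold change of 0.10. Over all tested genes 1.42% passed, and 6.65% were higher and 8.07% lower at an unadjusted p under 0.05. Of the 15 transducers, 1 (Src64B) was higher and 2 (Dsor1 and Ras85D) were lower in CycGΔP discs without overlap. Among all tested genes 9.98% were higher and 12.1% lower without overlap. Dsor1, the MEK of the pathway, was at 56.9, 46.8 and 53.3 CPM in CycGΔP discs and 59.2, 62.4 and 63.4 CPM in control discs, lower without overlap (log2 fold change -0.24, SE 0.09, adjusted p = 0.271, edgeR). The kinase gene Src64B (log2 fold change 0.26, SE 0.10, adjusted p = 0.280) and the adaptor gene drk (0.14, SE 0.07, adjusted p = 0.409) completed the 3 transducers with the smallest p.

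The inhibitor sty (sprouty), a feedback target that dampens receptor signalling to Ras, was at 91.9, 111.9 and 86.6 CPM in CycGΔP discs and 78.8, 71.3 and 72.2 CPM in control discs. All CycGΔP libraries were higher (log2 fold change 0.39, SE 0.11, adjusted p = 0.179, edgeR). Of the 10 inhibitors 2 (sty and Gap1) were higher without overlap, and of the 5 effectors 1 (edl), beside 9.98% of all tested genes. The Ras GTPase activator Gap1 and the ERK phosphatase Mkp3 gave 0.21 (SE 0.09, adjusted p = 0.347) and 0.14 (SE 0.08, adjusted p = 0.471). Among the effectors, edl, which antagonises the repressor Yan, was at 27.5, 29.0 and 26.6 CPM in CycGΔP discs and 24.3, 21.7 and 24.1 CPM in control discs, without overlap (log2 fold change 0.24, SE 0.07, adjusted p = 0.193, edgeR). pnt and aop, the activator and the repressor at the end of the pathway, gave 0.20 (SE 0.09, adjusted p = 0.340) and 0.18 (SE 0.11, adjusted p = 0.468).

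Genes around tor were examined next. Of 7 genes with a transcription start within 20 kb of it, 4 were tested and none passed, against 1.42% of all tested genes. A gene whose body reaches into this window but whose start lies outside it was not counted. CG34216 lies 88 bp beyond the 3′ end of tor on the same strand (2R:7703506-7705095). It held only 2, 6 and 4 counts in CycGΔP libraries and 24, 30 and 19 counts in control libraries, which was 0.0762, 0.285 and 0.140 CPM against 0.767, 0.736 and 0.662 CPM. Its groups did not overlap, beside 12.1% of all tested genes that were lower without overlap. Its log2 fold change of -2.12 (SE 0.53) lay close to that of tor. CG34216 passed the expression filter through its control libraries alone, which favours genes that fall. Its values are therefore a description. The other 3 tested genes overlapped between genotypes: LRR (0.22, SE 0.15), Coq9 (-0.14, SE 0.13) and CG30496 (-0.07, SE 0.09). Whether reads of CG34216 come from transcripts that run on from tor was not tested.

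**Figure D4:**
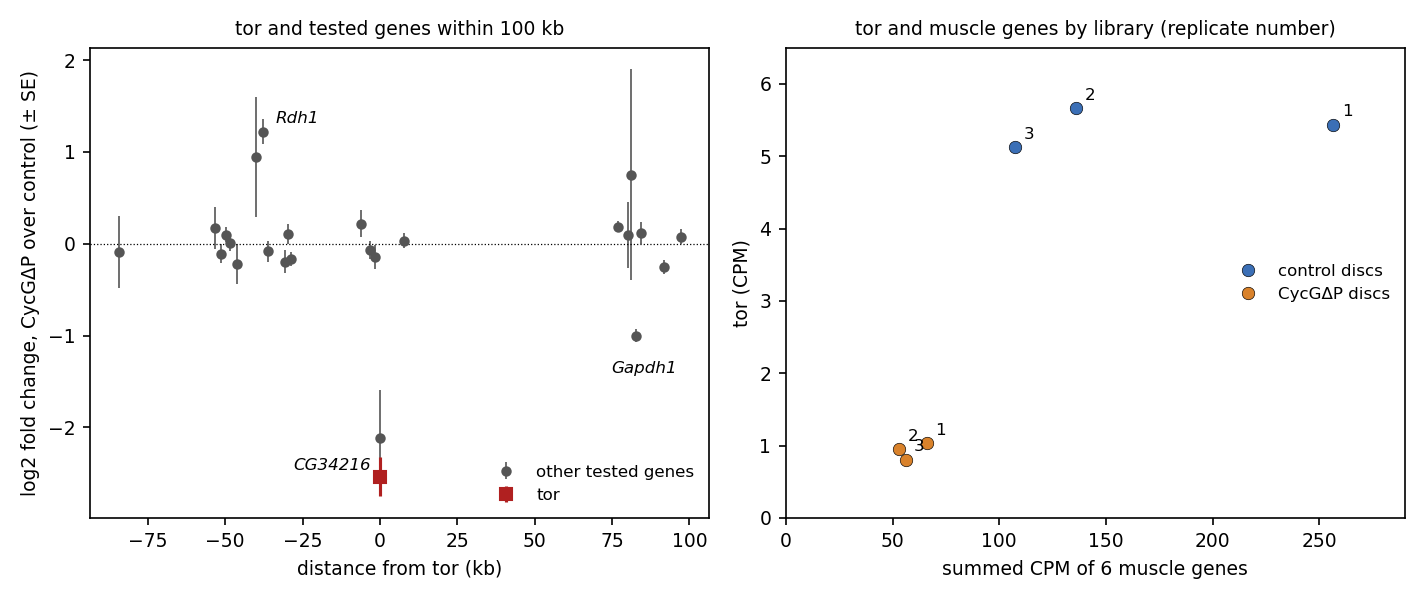
Left, log2 fold change of CycGΔP over control discs (± SE) for tor (red square) and the 24 other tested genes within 100 kb, by distance from tor in kb. Right, tor CPM against the summed CPM of 6 muscle genes in each library, with the replicate number beside each point. tor and CG34216 share values below -2 while the next genes lie near 0, and both tor and the muscle sum are higher in all control libraries than in all CycGΔP libraries.

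The 5 tested genes whose log2 CPM followed tor most closely over the 6 libraries were clumsy (Pearson r = 0.9975), Gapdh1 (0.9958), lncRNA:CR45625 (0.9942), yellow-e3 (0.994) and cN-IIIB (0.9939). With 3 libraries of each genotype such a correlation follows mainly the difference between genotypes, and 27 of 9407 genes had r above the bound of 0.98. clumsy, a glutamate receptor subunit gene, held 1, 3 and 0 counts in CycGΔP libraries and 655, 779 and 539 counts in control libraries. lncRNA:CR45625 held no count in any CycGΔP library and 24, 27 and 21 in control libraries. Both clumsy and lncRNA:CR45625 passed the expression filter through the control libraries alone. As tor was chosen for its fall, a list of genes correlated with it favours genes that fall, and it is a description only. Gapdh1, a glycolytic enzyme gene, had means of 335.3 ± 11.7 CPM (controls) and 167.3 ± 7.97 CPM (CycGΔP), each over 3 libraries with its SD.

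Markers of cells other than disc epithelium were set beside the tor values. Of the 8 marker lists, that of differentiated muscle alone held genes that were lower in CycGΔP discs without overlap. These were 5 of its 6 genes, against 12.1% of all tested genes, and the level summed over the 6 was 66.0, 53.1 and 56.1 CPM in CycGΔP discs and 256.6, 136.0 and 107.3 CPM in control discs. Of the 6 only Mhc (muscle myosin heavy chain) passed the test, just under the threshold (log2 fold change -2.34, adjusted p = 0.0449, edgeR), beside 1.42% of all tested genes. Without control replicate 1, the library with the highest muscle sum, the log2 fold change of tor was -2.56. The control muscle sums left in that fit, 136.0 and 107.3 CPM, still exceeded every CycGΔP library. That fit therefore cannot separate muscle content from genotype. The 4 prothoracic gland markers phm, dib, sad and spok, the tissue in which Torso is best known at this stage, summed to 10.1 to 11.7 CPM in CycGΔP discs and 8.67 to 9.79 CPM in control discs. Of the 4, dib was higher in CycGΔP discs without overlap (log2 fold change 0.72, adjusted p = 0.231, edgeR), phm and sad overlapped between genotypes, and spok was at no more than 0.0762 CPM in a library. Summed per library, the 5 fat body markers were at 4243 to 6743 CPM in CycGΔP discs and 559.5 to 17290 CPM in control discs. The 6 tracheal markers summed to 1789 to 2178 CPM in CycGΔP discs and 1779 to 1925 CPM in control discs. The part of cell composition in the tor values was not tested further.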

How the data were processed

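Per the labels and the study's methods, polyA RNA was prepared with a stranded kit (TruSeq Stranded mRNA) and sequenced as single reads of 50 bp. The authors aligned reads to dm6 with TopHat2 2.0.10 and counted unambiguously mapped reads on Ensembl BDGP5 genes with summarizeOverlaps. They deposited whole-number counts per gene without normalisation. Their own test of differential expression was an earlier version of DESeq2. Whether strand was used in counting is not stated in the sources used here. A deposited table of the same counts divided by size factors was not used, and it holds no further measurement. In the raw counts that were used, the number of unused value columns was 0.

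The test used R 4.3.3 and edgeR 4.0.16 (TMM factors, expression filter by genotype, robust quasi-likelihood F-test, Benjamini-Hochberg adjustment over 9408 genes, threshold 0.05). CPM used TMM-scaled totals of the tested genes, and per kb values used merged exon lengths. Symbols, coordinates and exon lengths came from Ensembl gene models of BDGP6.54, which uses dm6 coordinates and may differ from the models that were counted; 17219 of 17478 identifiers had a symbol. DESeq2 1.42.0 and limma 3.58.1 (voom), other scaling factors and filters, a replicate block and leaving out each library were alternatives. The test was tried on simulated data. The spread among 3 samples per genotype limits the precision, and intervals cover these samples only.

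The receptors and lists were chosen with earlier results of these data known. Named genes were the 10 receptors, the wider family, ligands with at least 3 counts in all libraries together, of the other lists the genes that passed or else the 3 with the smallest p, the 5 genes most correlated with tor and tested genes starting within 20 kb of tor. CycG and the marker genes served as checks.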

Additional observations from a re-analysis of the deposited data

How the results depend on the processing

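Over 14 alternatives the log2 fold change of tor lay between -2.63 and -1.57; the last is the value shrunken by DESeq2 with a prior, and leaving out 1 library gave -2.63 to -2.44. Of the other 8 receptors, edgeR and limma settings called 0, and DESeq2 called 3 (Pvr, drl and dnt) without and with a prior. Of the pathway genes DESeq2 called 2 of 44 (Pvf2 and sty) in both forms, and all other settings called 0. DESeq2 called 5.79% of all its tested genes without a prior and 6.00% with one. Why the settings differed was not tested. Over all genes 134 were called in the reported fit, 564 and 536 by DESeq2, and 11 (without CycGΔP replicate 3) to 78 (without control replicate 1) with 1 library left out, fits that have fewer samples. Cad96Ca changed sign with upper-quartile factors (6.2e-05) and without CycGΔP replicate 2 (0.094), with a range of -0.11 to 0.094 when each library was left out in turn. With coding length in place of exon length, the places among the 9 receptors became 3 for otk, 4 for Cad96Ca, 5 for htl, 6 for Pvr, 8 for Alk and 9 for Ror. Replicate numbers showed no pairing of the samples: same-numbered deviations correlated at -0.10, -0.18 and -0.13, and no sample correlated best with its own number. With 3 samples per genotype, each centred on its group mean, this check is weak. CycGΔP replicates 1, 2 and 3 correlated at 0.24, 0.17 and 0.18 with control replicates 2, 3 and 1. A batch shared under other numbering was not tested. With the replicate block, 2 genes were called over all genes and 0 of the other receptors, and tor stayed at -2.54. Low counts limit sev, Ret, Ror, CG34216, trk and, in CycGΔP discs, tor.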

Other observations

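The neighbourhood of tor was widened to 100 kb on either side, a window chosen after the values were seen. Of 24 other tested genes in it, 2 passed the edgeR test with adjustment over all genes, 1 in each direction, beside 1.42% of all tested genes. Distances are to the nearest edge of a gene. Gapdh1, 82717 bp from tor and among the genes that followed it most closely, fell from 335.3 ± 11.7 to 167.3 ± 7.97 CPM (SD, n = 3 each, log2 fold change -1.003, SE 0.07, adjusted p = 0.00437, edgeR). Gapdh1 had already been picked from these same values by its correlation with tor, so the count of calls in this window is a description. Rdh1, a retinol dehydrogenase gene 37840 bp on the other side, rose by 1.22 on the log2 scale (SE 0.14, adjusted p = 0.0192, edgeR). Gdap2, whose body lies 7623 bp from tor with its start beyond 20 kb, gave 0.03 (SE 0.08), and CanB2, 76826 bp from it, gave 0.19 (SE 0.06, adjusted p = 0.219, edgeR).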
